A study of Taeniopygia guttata with 24 samples.

Results

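Gene expression in the telencephalon of male and female zebra finches was compared at 65 days post hatch (dph). The comparison rests on the 6 samples that the labels place at 65 dph, 3 male and 3 female, of 24 samples in the series. Each sample is 1 pool of RNA from the telencephalons of 3 birds, so that each value averages over these birds. The other 18 samples are 3 male and 3 female pools each at 1 dph, at 20 dph and in adults. All birds were untreated zebra finches raised in 1 aviary, and nestmates were randomly spread over the ages; which nests a pool holds is not in the labels used here. Genes were read as counts per Ensembl gene, and levels are given as cpm, a gene's counts relative to the library size after scaling with TMM, edgeR's trimmed mean of M values. At 65 dph 16680575 to 25588524 reads per pool fell on genes, so that 3 reads, taken as the smallest level a library can show, correspond to 0.124 to 0.191 cpm. These levels cover all cells of the telencephalon, in which fewer cells of a type and less RNA per cell cannot be told apart.

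In birds the male carries a pair of Z chromosomes and the female 1 Z and 1 W, and most Z genes are not brought to the same level in both sexes. The copy number of the Z thus differs between the groups compared, besides sex itself. In the zebra finch only males sing, and around this age young males practise the song they memorised from a tutor. The neural circuits for song lie in the telencephalon and are much larger in males, but they are a small part of the tissue sampled.

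The labelled sex was checked with the Z index, the median log2 level of Z genes in a pool relative to the mean of all pools of its age, minus the same for non-Z genes. At 65 dph it was 0.34, 0.33 and 0.37 in the male pools, against -0.26, -0.36 and -0.39 in the female pools. The sexes did not overlap at 1, 20 or 65 dph. In adults the labelled male pools had indices of -0.08, 0.30 and 0.06 and the female pools -0.12, -0.05 and -0.09, so that adult male pool 1 lay within the female range and adult male pool 3 between the female pools and male pool 2. The comparison of the sex effect with that in adults is therefore given also without each of these pools in turn. Among the pools at 65 dph, female pool 3 stood apart, with 46 genes more than 2-fold above all 5 other pools, against 4 to 9 such genes in each other pool. Of 10 lists of cell type markers, 9 had tested members with a known symbol and that of microglia had none. Symbols were known for only 3515 of the 13891 tested genes, so that markers missing from a list may still be expressed. The sum over 14 markers of pallial and subpallial neurons was 6806 to 7308 cpm in male pools and 6960 to 7095 cpm in female pools. The sum over 7 oligodendrocyte markers was 1628 to 1847 cpm in males and 1579 to 1774 cpm in females, and that over 2 blood cell markers was 503 to 758 cpm and 619 to 653 cpm. The ranges of the sexes overlapped in each of these 9 lists.

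**Figure D1:**
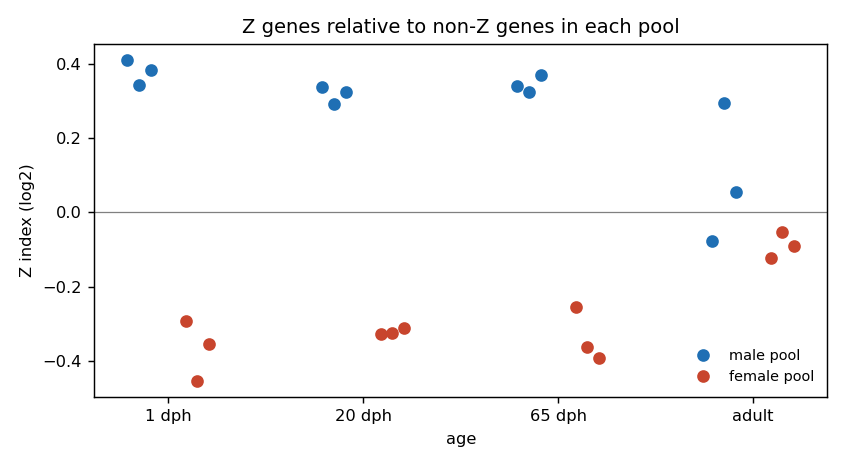
Z index of each of the 24 pools (log2 scale, y axis) by age (x axis), male pools to the left of female pools. At 65 dph the 3 male pools lie between 0.33 and 0.37 and the 3 female pools between -0.39 and -0.26, whereas adult male pools range between -0.08 and 0.30.

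Most sex differences at 65 dph were on the Z chromosome and toward males. Of 639 Z genes tested, 400 were higher and 4 lower in males than in females at an adjusted p under 0.05 (edgeR's quasi-likelihood test with Benjamini-Hochberg adjustment over all 13891 genes; such genes are termed called below). Over all tested genes, 3.26% were called, 3.02% higher and 0.245% lower in males. Of the Z genes 63.2% were called, and of the 13252 non-Z genes 0.37%, that is 19 higher and 30 lower in males. The study's stagewise test, which first tests all its contrasts together, called 677 genes when run here, 193 of them non-Z. Its joint test includes the effect of age, and its second step adjusts over the contrasts of each gene rather than over all genes. Its counts and adjusted p-values are thus not on the scale of the others. The 3 male pools did not overlap the 3 female pools in 82.3% of Z genes and in 10.5% of non-Z genes, with 13.8% over all genes (7.37% higher and 6.47% lower in males). Z genes are those that the study's supplementary tables place on the Z or its unplaced fragment, and all other genes are termed non-Z, including 10007 for which the tables used here name no chromosome.

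The M:F ratio, the mean cpm of the male pools over that of the female pools, had a median of 1.63 over Z genes and of 0.988 over non-Z genes. The 5th and 95th percentiles over Z genes were 1.02 and 2.15. A ratio from 1.8 to 2.2 was found for 196 Z genes, one of at least 2.2 for 24, one from 1.5 to 1.8 for 170 and one from 1.1 to 1.5 for 189. For 46 it was between 0.9 and 1.1 and for 14 under 0.9. Split into 3 classes of 213 Z genes by level, the median ratio was 1.65 in the class up to 9.96 cpm, 1.68 in that up to 42.2 cpm and 1.56 above. In the lowest class 76 genes were called (35.7%), in the middle class 165 (77.5%) and in the highest 163 (76.5%).

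**Figure D2:**
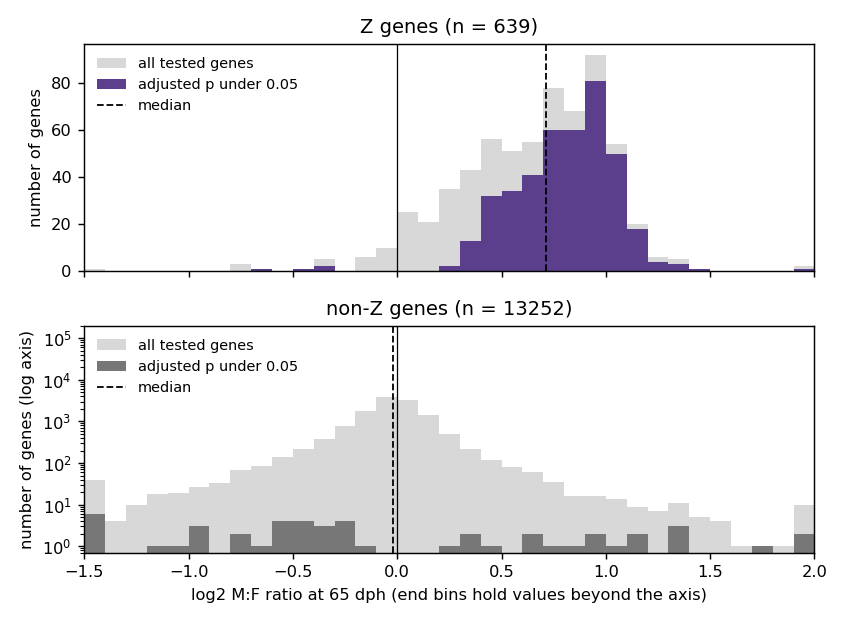
Distribution of log2 M:F ratios at 65 dph over 639 Z genes (top) and 13252 non-Z genes (bottom, log axis). Coloured bars are genes with an adjusted p under 0.05 within all tested genes in grey, and dashed lines are the medians of 0.71 and -0.02; 404 Z and 49 non-Z genes were called.

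The Z genes with the smallest adjusted p were all near a doubling in males. PIK3C3, the lipid kinase that starts autophagosomes, was read at 267, 269 and 283 cpm in male pools, against 145, 143 and 137 cpm in female pools (log2 fold change 0.95 ± 0.07 SE, adjusted p = 3.19e-08). STARD4, a carrier of cholesterol within cells, was at 157, 165 and 161 cpm in males and at 75.3, 80.4 and 80.5 cpm in females (1.03 ± 0.08, adjusted p = 3.33e-08). In both genes the lowest male pool was far above the highest female pool, and pools of a sex differed little.

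CCNH, the cyclin of the kinase that activates other cell cycle kinases and RNA polymerase II, had 83.0, 84.1 and 84.2 cpm in males, against 43.9, 41.4 and 44.7 cpm in females. NAA35, part of a complex that acetylates the amino end of proteins, had 221, 235 and 243 cpm in males and 123, 112 and 113 cpm in females. TTC37, which joins the complex that feeds RNA to the exosome for decay, had 111, 108 and 104 cpm in males and 60.3, 56.3 and 55.6 cpm in females. Their log2 fold changes were 0.95, 1.00 and 0.91, and all 3 kept their sexes apart without overlap, as did 82.3% of Z genes.

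Among called Z genes with a symbol and no overlap of pools, the largest ratio at 65 dph was that of CKMT2, the mitochondrial creatine kinase of muscle. It was near the limit of detection, with 1.09, 1.13 and 1.51 cpm in male pools, against 0.097, 0.13 and 0.083 cpm in female pools. This corresponds to 78 reads over the male and 6 reads over the female pools, a ratio per library total of 12.3 (95% exact interval 5.42 to 34.6, for counting error only). CKMT2 passed the filter on low counts only through the 3 male pools at 65 dph, the group in which it is high, and fell below it when any of them was left out. Its ratio is therefore given as a description and its test is not used. Its level was at most 0.455 cpm in the male pools at 20 dph, and in adults a single female pool had the highest value (0.51 cpm).

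The 9 that followed were between 2.27-fold and 2.65-fold higher in males. ERCC6L2, a helicase of the response to DNA breaks, had 19.9, 18.8 and 19.0 cpm in males, against 9.06, 7.32 and 6.29 cpm in females (log2 fold change 1.35 ± 0.18, adjusted p = 1.14e-05). C7, a component of the complement membrane attack complex, had 11.7, 11.0 and 10.7 cpm in males, against 4.55, 4.52 and 3.97 cpm in females (1.36 ± 0.22, adjusted p = 0.000219). GOLM1, a Golgi membrane protein, had 10.11, 10.03 and 10.08 cpm in males and 4.456, 5.286 and 3.599 cpm in females, so that the male pools were nearly identical. FAM151B was more spread, with 16.4, 11.7 and 14.4 cpm in males and 7.31, 3.25 and 5.54 cpm in females. ATG10, an enzyme that conjugates autophagy proteins, had 5.10, 5.22 and 5.98 cpm in males and 2.37, 2.74 and 1.99 cpm in females. ANKRD31, DTWD2, LRRC70 and LOC105760863 had means of at most 2.94 cpm in males. LRRC70 was no longer called without male pool 1 or 2 or without female pool 2 or 3 (adjusted p = 0.0535 to 0.192), DTWD2 without male pool 1 or female pool 2 or 3 (adjusted p = 0.0570 to 0.108) and ANKRD31 without female pool 3 (adjusted p = 0.0723). In a fit of the 65 dph pools alone, LRRC70 and LOC105760863 were not called (adjusted p = 0.0970 and 0.102).

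**Figure D3:**
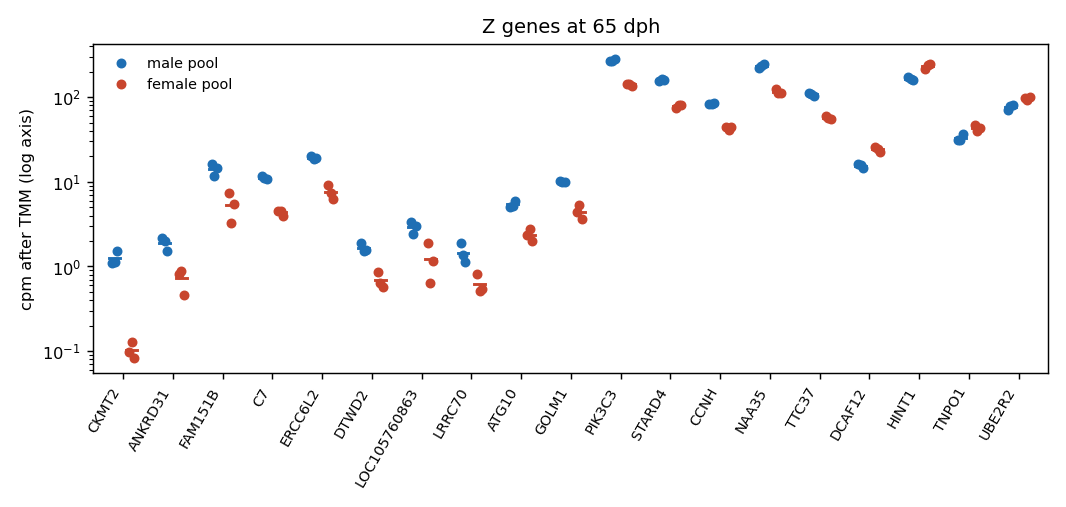
Level in cpm after TMM (log axis) of 19 Z genes in each male and female pool at 65 dph, with male pools to the left and a bar at each mean. From left to right are the 10 largest ratios toward males, the 5 smallest adjusted p-values and, for DCAF12, HINT1, TNPO1 and UBE2R2, the 4 Z genes higher in females. The pools of the sexes overlap in none of the 19. This was a condition for the first 10, and it holds for 82.3% of all Z genes.

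Only 4 Z genes were called lower in males. DCAF12, a substrate receptor of a ubiquitin ligase, had 16.3, 15.7 and 14.4 cpm in males, against 25.7, 24.7 and 22.7 cpm in females (log2 fold change -0.65 ± 0.11, adjusted p = 0.000351). HINT1, a hydrolase with a histidine triad, had 172, 165 and 160 cpm in males, against 213, 239 and 247 cpm in females (-0.49 ± 0.11, adjusted p = 0.00885). UBE2R2, an enzyme that conjugates ubiquitin, had 71.5, 78.3 and 81.7 cpm in males and 98.5, 93.7 and 99.98 cpm in females (-0.34 ± 0.07, adjusted p = 0.00344). TNPO1, an importer of proteins into the nucleus, had 31.1, 30.9 and 36.9 cpm in males and 46.5, 40.1 and 42.6 cpm in females (-0.39 ± 0.11, adjusted p = 0.0446). DCAF12 and UBE2R2 were called whichever 1 of the 6 pools was left out. HINT1 was not called without male pool 3 (adjusted p = 0.0595) or female pool 3 (adjusted p = 0.0656). TNPO1 was called only without male pool 3 or female pool 2, with adjusted p = 0.122 to 0.236 without each of the other pools, and missed the threshold with the 65 dph pools alone (adjusted p = 0.0666).

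Some highly expressed Z genes were near equal in the sexes. ATP5F1A, a subunit of mitochondrial ATP synthase and the most highly expressed Z gene, was called, with 1522, 1574 and 1429 cpm in males and 1009, 1135 and 1118 cpm in females (log2 fold change 0.47 ± 0.07). The 4 that followed were not called. VCP, an ATPase that pulls ubiquitylated proteins from complexes, had 633, 650 and 634 cpm in males and 605, 636 and 629 cpm in females, which overlap (0.04 ± 0.05, adjusted p = 0.95). MAP1B, a microtubule protein of growing axons, was at 0.35 ± 0.15, PHF24 at 0.26 ± 0.08 and RUSC2 at 0.22 ± 0.06 on the log2 scale. Their pools did not overlap, but they missed the threshold (adjusted p = 0.439, 0.103 and 0.0687). PHF24 and RUSC2 passed the threshold in a fit of the 65 dph pools alone (adjusted p = 0.0158 and 0.0434). They also passed it with DESeq2 (adjusted p = 0.0377 and 0.0185). RUSC2 passed it with the likelihood ratio test as well (adjusted p = 0.0417). Both were called by the study's stagewise test, whose p-values of 0.00779 and 0.00938 are adjusted within each gene only, not over all genes.

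The 5 uncalled Z genes of at least 10 cpm closest to equality were AKAP2, LOC100228044, TXNL1, NEDD4L and ZSWIM6, with log2 fold changes between -0.02 and 0.03 and SEs of 0.05 to 0.10. NEDD4L, a ubiquitin ligase for ion channels, had 268, 281 and 273 cpm in males, against 264, 274 and 271 cpm in females. The sexes overlapped in each of the 5 genes, whereas they were far apart in PIK3C3, which is expressed at a similar level in males.

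A list of 23 Z genes that keep a copy on the W chromosome in chicken had a median log2 fold change of 0.15, beside 0.71 over all Z genes. Of its members 8 were called higher and 2 lower in males (43.5% called, beside 63.2% of Z genes). The lower ones were HINT1 and UBE2R2. RPL17, a protein of the large ribosomal subunit, had the largest ratio of the list, with 213, 193 and 192 cpm in males and 91.3, 101 and 108 cpm in females. UBAP2, BTF3 and RASA1, an inhibitor of Ras, had log2 fold changes of 0.71, 0.65 and 0.60. TXNL1, ZSWIM6, VCP and HNRNPK were among the 13 without a call. Whether the zebra finch W carries these copies and whether their reads fall on the Z copy was not tested. The assembly used was built from males alone, so that it holds no W sequence for such reads.

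Of 27 Z genes of protein synthesis 25 were called, all higher in males, with a median log2 fold change of 0.85. That is 92.6%, beside 63.2% of all Z genes, whose median was 0.71. The share of Z genes called was 35.7% up to 9.96 cpm and 76.5 to 77.5% in the 2 higher level classes. The lists were not matched for level and were chosen with earlier results of these data known. PELO, which rescues stalled ribosomes, had 41.2, 38.1 and 35.9 cpm in males, against 18.9, 18.6 and 19.8 cpm in females. WDR36, needed to make the small ribosomal subunit, averaged 48.5 ± 1.6 cpm in males and 24.3 ± 0.52 cpm in females (SD, n = 3 each). SRP19, of the particle that directs new proteins to the endoplasmic reticulum, averaged 118 ± 4.7 cpm in males and 60.1 ± 1.0 cpm in females. The 2 members without a call were NARS, an enzyme that charges tRNA with asparagine (0.03 ± 0.06), and MRPL50 (0.56).

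Of 22 Z genes of mitochondrial energy metabolism, 18 were called, all higher in males, with a median of 0.84. That is 81.8%, beside 63.2% of all Z genes and 76.5 to 77.5% of those above 9.96 cpm. ACAA2, a thiolase of fatty acid oxidation, had 39.5, 42.5 and 37.4 cpm in males and 17.5, 18.1 and 22.3 cpm in females, and AK3, an adenylate kinase of the mitochondrial matrix, averaged 44.3 ± 2.2 cpm in males and 22.0 ± 2.2 cpm in females. CKMT2, whose test is not used, is also of this list, and its call is among the 18. The 7 tested genes encoded in the mitochondrial genome had log2 fold changes from -0.07 to 0.18, and the smallest of their adjusted p-values was 0.923.

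Z genes of lipid and sterol metabolism were called in 20 of 24 cases, all higher in males. That is 83.3%, beside 63.2% of all Z genes and 76.5 to 77.5% of those above 9.96 cpm. Their median was 0.77, beside 0.71 over all Z genes. PIGG, an enzyme of the membrane anchor glycosylphosphatidylinositol, had 122, 110 and 126 cpm in males, against 56.5, 53.7 and 52.2 cpm in females (1.14 ± 0.09, adjusted p = 4.82e-08). SPTLC1, of the first step of sphingolipid synthesis, had 62.2, 57.7 and 67.9 cpm in males and 30.9, 28.4 and 27.5 cpm in females. HACD4 was low, at 1.53 ± 0.15 cpm in males and 0.72 ± 0.10 cpm in females, and lost its call whichever 1 of the pools was left out (adjusted p = 0.0570 to 0.158). HMGCS1, an enzyme of cholesterol synthesis, was called with a log2 fold change of 0.55. With the 65 dph pools alone HACD4 was not called either (adjusted p = 0.0608).

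Among 36 Z genes of protein folding, ubiquitin and autophagy, 28 were called higher and 1, UBE2R2, lower in males. That is 80.6%, beside 63.2% of all Z genes and 76.5 to 77.5% of those above 9.96 cpm. Their median was 0.83, beside 0.71 over all Z genes. PLAA, a partner of VCP, had 136, 146 and 148 cpm in males, against 69.4, 68.5 and 65.1 cpm in females. C9orf72, a regulator of endosomes and autophagy, had 67.8, 73.2 and 73.9 cpm in males and 37.9, 31.9 and 33.8 cpm in females. RNF180 averaged 11.9 ± 1.4 cpm in males and 5.67 ± 0.94 cpm in females. PLAA was near a doubling, whereas VCP itself was near equal.

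Z genes of DNA repair and cell division were called in 24 of 29 cases, all higher in males. That is 82.8%, beside 63.2% of all Z genes and 76.5 to 77.5% of those above 9.96 cpm. Their median was 0.87, beside 0.71 over all Z genes. CENPK, a protein of the kinetochore, had 48.8, 50.5 and 55.5 cpm in males, against 26.1, 23.5 and 23.4 cpm in females. CEP120, of the centriole, averaged 47.9 ± 5.2 cpm in males and 22.8 ± 1.35 cpm in females. RMI1, of the complex that dissolves crossed DNA strands, had 11.4, 9.16 and 13.9 cpm in males and 7.65, 3.44 and 4.51 cpm in females, and missed the threshold with the 65 dph pools alone (adjusted p = 0.0529). CKS2, a small partner of cyclin-dependent kinases, had 5.32, 7.03 and 4.74 cpm in males and 2.66, 2.23 and 3.06 cpm in females, and was not called without male pool 2 (adjusted p = 0.107) or female pool 2 (adjusted p = 0.0712). A list of 26 cell cycle genes outside the Z had a median of -0.11, and the smallest of their adjusted p-values was 0.488.

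Z genes of chromatin and RNA modification were called in 20 of 25 cases, all higher in males. That is 80.0%, beside 63.2% of all Z genes and 76.5 to 77.5% of those above 9.96 cpm. Their median of 0.70 stood beside 0.71 over all Z genes. YTHDC2, a helicase that binds methylated adenosine in RNA, had 237, 249 and 241 cpm in males, against 127, 130 and 119 cpm in females (0.95 ± 0.08, adjusted p = 7.31e-08). SMC5, of the SMC5/6 complex, averaged 58.9 ± 2.9 cpm in males and 28.8 ± 3.6 cpm in females. SETD9, which has a SET domain, had 42.5, 39.8 and 41.2 cpm in males and 21.7, 20.6 and 22.1 cpm in females. KDM4C, a demethylase of histone H3, was lower expressed, at 7.80, 9.03 and 8.57 cpm in males and 4.36, 3.89 and 3.76 cpm in females. UHRF2, a reader of DNA modification, and SETBP1 were further from a doubling, at 0.70 ± 0.11 and 0.68 ± 0.14. NIPBL, HNRNPK, SUB1, MIER3 and CHD1 were not called, with values between -0.09 and 0.23, and all 5 are also of the list with a W copy in chicken. SPIN1, which is of both lists too, was called higher in males (0.48).

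Of 54 Z genes of the synapse and of neuronal signalling 25 were called (46.3%, beside 63.2% of Z genes), all higher in males, with a median of 0.42. RIT2, a small GTPase of neurons, had 18.4, 17.6 and 18.1 cpm in males, against 8.67, 7.77 and 9.10 cpm in females. PIP5K1B, a lipid kinase, had 83.4, 86.3 and 97.9 cpm in males and 45.0, 42.4 and 40.1 cpm in females, and SNCAIP, a partner of alpha-synuclein, averaged 56.2 ± 2.9 cpm in males and 27.4 ± 1.6 cpm in females. RAB3C, a GTPase of synaptic vesicles, had 20.8, 23.9 and 26.4 cpm in males and 16.3, 9.94 and 10.1 cpm in females, and was not called without female pool 2 (adjusted p = 0.0605) or 3 (adjusted p = 0.0725).

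In glutamate release and uptake, 3 of 24 genes were called (12.5%, beside 3.26% of all genes), the Z genes RAB3C, SV2C and SYT4. SV2C, a protein of synaptic vesicles, had 55.1, 44.1 and 56.9 cpm in males, against 38.6, 29.2 and 27.7 cpm in females, and SYT4, a synaptotagmin that responds to activity, had 99.1, 109 and 126 cpm in males and 87.7, 79.2 and 71.8 cpm in females. Both lost their call without some of the single pools. SV2C was not called without male pool 1 or 3 or female pool 2 or 3 (adjusted p = 0.0809 to 0.152), and SYT4 without male pool 3 or female pool 2 or 3 (adjusted p = 0.0632 to 0.148). The list holds 10 Z genes, 3 of them called, beside 63.2% of all Z genes called. It also holds 14 others, and its median was 0.10. List members were matched by symbol, which 585 of 639 Z genes have, against 3515 of all 13891 tested genes. Mixed lists such as this and those below are thus rich in Z genes, and 3.26% is not a matched share for them. Among 22 glutamate receptors and postsynaptic genes, 4 of them on the Z, the 1 call was GRIN3A (4.55%, beside 3.26% of all genes). GRIN3A, a modulatory subunit of NMDA receptors on the Z, had 184, 181 and 185 cpm in males and 126, 119 and 124 cpm in females (0.58 ± 0.07, adjusted p = 6.34e-06).

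NTRK2, the receptor for BDNF and a Z gene, had 378, 379 and 403 cpm in males, against 294, 250 and 236 cpm in females (0.57 ± 0.11, adjusted p = 0.00194). Its ligand BDNF, a non-Z gene, was at 24.7 ± 1.4 cpm in males and 28.1 ± 0.6 cpm in females and was not called (-0.19, adjusted p = 0.640). Of 10 neurotrophin genes and receptors 4 were called, all higher in males and all among the 6 Z genes of the list, which is near the share of all Z genes called (63.2%). SHC3, an adaptor of neurotrophin receptors, averaged 73.8 ± 5.0 cpm in males and 39.8 ± 7.7 cpm in females. LIFR and IL6ST, subunits of receptors for cytokines such as CNTF and LIF, averaged 41.5 ± 3.3 and 31.8 ± 2.5 cpm in males, against 23.9 ± 3.9 and 19.4 ± 1.5 cpm in females.

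Of 7 steroid hormone receptors and enzymes, only HSD17B4, the 1 Z gene of the list, was called (14.3%, beside 3.26% of all genes and 63.2% of Z genes). This peroxisomal enzyme, which can oxidise estradiol and acts in fatty acid oxidation, is on the Z and had 239, 263 and 251 cpm in males, against 127, 136 and 127 cpm in females (0.95 ± 0.09, adjusted p = 1.75e-07). CYP19A1, the aromatase that makes estradiol, averaged 17.3 ± 1.9 cpm in males and 23.4 ± 10.1 cpm in females, and was not called (adjusted p = 0.540).

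Of 11 immediate early genes, which neurons switch on with activity, only the Z gene PLK2 was called (9.09%, beside 3.26% of all genes). The list holds 4 Z genes. PLK2 had 188, 198 and 216 cpm in males, against 140, 145 and 147 cpm in females. EGR1 averaged 352 ± 59 cpm in males and 354 ± 52 cpm in females. GADD45G, a Z gene of DNA demethylation and stress, had 7.98, 7.62 and 8.79 cpm in males and 5.76, 7.20 and 7.82 cpm in females, which overlap, and was not called (0.23 ± 0.13, adjusted p = 0.748). Of 15 genes described in the song system, VLDLR and CRHBP, the 2 Z genes of the list, were called (13.3%, beside 3.26% of all genes). VLDLR, a receptor for reelin, had 91.6, 97.2 and 95.3 cpm in males and 67.5, 69.2 and 60.4 cpm in females. CRHBP, which binds the stress peptide CRH, had 155, 201 and 190 cpm in males and 139, 129 and 161 cpm in females, which overlap (adjusted p = 0.0497). It lost its call without male pool 2 or 3 or female pool 1 or 2 (adjusted p = 0.149 to 0.353) and with the 65 dph pools alone (adjusted p = 0.186). In the marker lists the calls were DRD1, given below, and TEK. These were 1 of 14 neuron markers (7.14%) and 1 of 5 endothelium and pericyte markers (20.0%), beside 3.26% of all genes. TEK, the angiopoietin receptor of endothelium and a Z gene, had 11.0, 16.2 and 16.1 cpm in males and 9.44, 9.74 and 8.31 cpm in females. TEK was called only without male pool 1, with adjusted p = 0.0678 to 0.210 without each of the other pools and 0.0677 with the 65 dph pools alone.

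Outside the Z few genes differed, and many of these calls rested on single pools. Of the 49 calls, 7 were genes with a stated chromosome (3 higher and 4 lower in males, 0.216% of 3245) and 42 were genes with none (16 higher and 26 lower, 0.42% of 10007). Each of the 6 pools was left out in turn, and 6 of the 19 non-Z calls toward males and 4 of the 30 toward females were made every time. Of the Z calls, 312 of 400 toward males and 2 of 4 toward females were. Since genes without a stated chromosome are counted as non-Z, some of the 42 may lie on the Z. The assembly used was built from males alone, and the authors state that W transcripts could not be mapped to it.

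The 10 non-Z calls made whichever pool was left out have neither a symbol nor a chromosome in the tables used here, and 4 of them, picked after their values were seen, are given here. ENSTGUG00000014190 had 70.6, 74.6 and 83.0 cpm in males, against 39.4, 40.3 and 37.4 cpm in females (log2 fold change 0.96 ± 0.08, adjusted p = 7.31e-08). ENSTGUG00000014185 had 23.7, 27.1 and 25.6 cpm in males, against 12.5, 13.2 and 12.7 cpm in females (1.00 ± 0.12, adjusted p = 3.33e-06). Both were near a doubling in males and were also called at 1 dph (1.00 and 0.90) and at 20 dph (0.97 and 1.09). ENSTGUG00000009315 had 37.6, 38.1 and 38.9 cpm in males, against 51.8, 57.2 and 49.3 cpm in females (-0.46 ± 0.08, adjusted p = 0.000838), and was also called at 1 dph (-0.33). ENSTGUG00000016617 had 39.6, 42.8 and 39.2 cpm in males, against 54.8, 52.7 and 60.3 cpm in females (-0.47 ± 0.08, adjusted p = 0.000479), and was called at neither younger age (-0.20 and -0.29). In these 4 genes the pools of the sexes did not overlap, as in 47 of the 49 non-Z calls and in 10.5% of all non-Z genes.

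Among non-Z genes with a symbol, DRD1, a dopamine receptor of striatal neurons on chromosome 13, had 91.3, 87.4 and 91.9 cpm in males, against 67.8, 75.5 and 77.9 cpm in females (0.29 ± 0.07, adjusted p = 0.0103). It missed the threshold without male pool 3 (adjusted p = 0.0529) or female pool 1 (adjusted p = 0.0901) and with the 65 dph pools alone (adjusted p = 0.0680). CALCB, a calcitonin gene-related peptide on chromosome 5, was near the limit of detection, with 0.44, 0.27 and 0.32 cpm in males and 0.00, 0.06 and 0.00 cpm in females. These are 22 reads in males and 1 read in females, a ratio per library total of 20.9 with a 95% exact interval of 3.37 to 861 for counting error. It was not called without female pool 1 (adjusted p = 0.0574) or 3 (adjusted p = 0.0992). RAB23, a GTPase that limits hedgehog signalling, is on chromosome 3 and had 21.2, 19.2 and 20.1 cpm in males and 18.1, 13.7 and 15.4 cpm in females (adjusted p = 0.0499). RAB23 was called only without female pool 1, with adjusted p = 0.0715 to 0.350 without each of the other pools and 0.236 with the 65 dph pools alone.

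Of the 4 genes with a symbol that were lower in males, only RARRES1 differed by more than 2-fold. MKRN3, a ubiquitin ligase on chromosome 1A, had 285, 291 and 287 cpm in males, against 319, 333 and 330 cpm in females (-0.19 ± 0.05, adjusted p = 0.0282). UBQLN4, a shuttle of the proteasome on chromosome 25, had 368, 362 and 340 cpm in males, against 394, 424 and 426 cpm in females (-0.22 ± 0.06, adjusted p = 0.0273). DBNDD1, on chromosome 11, had 10.3, 9.07 and 6.85 cpm in males, against 11.1, 12.9 and 14.2 cpm in females (-0.54 ± 0.15, adjusted p = 0.0479). MKRN3 was called only without female pool 1 (adjusted p = 0.0779 to 0.133 without each of the other pools), and UBQLN4 and DBNDD1 only without male pool 1 or female pool 1 (adjusted p = 0.0700 to 0.354 without each of the others). With the 65 dph pools alone MKRN3, UBQLN4 and DBNDD1 were not called (adjusted p = 0.160, 0.156 and 0.231). RARRES1, on chromosome 9 and named for its response to retinoic acid, had 13.0, 7.67 and 17.6 cpm in males, against 18.5, 21.8 and 41.8 cpm in females. Its log2 fold change of -1.12 was -0.66 without female pool 3 (adjusted p = 0.317), and it was not called without male pool 1 or 2 (adjusted p = 0.0546 and 0.140) or with the 65 dph pools alone (adjusted p = 0.186).

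ENSTGUG00000017276, for which the tables give no symbol or chromosome, was near the limit of detection in male pools at 65 dph. It had 0.04, 0.00 and 0.11 cpm in male pools, against 1.11, 1.02 and 0.58 cpm in female pools, that is 3 reads in males and 53 in females. Female over male, the ratio per library total was 18.6 (95% exact interval 6.04 to 93.2, for counting error only), with a log2 M:F of -4.08 ± 0.82. The gene was also lower in males at 1 dph (log2 M:F of -2.24) and was called lower in males at 20 dph (adjusted p = 0.0375). In adults it had 0.51, 0.05 and 1.17 cpm in the male pools and 0.95, 0.90 and 0.55 cpm in the female pools, so that adult male pools 1 and 3, which had the lower Z indices, reached the female levels of this gene. Without female pool 1 at 65 dph the gene fell below the filter on low counts and was not tested. Female pool 2 at 1 dph was above 1 cpm as well. The gene thus passed the filter in part through female pools at 65 and 1 dph, groups in which it is high. Its ratios at 65 and 1 dph are therefore given as a description and its tests there are not used.

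ENSTGUG00000002417, also without symbol or chromosome, was among the calls that rested on female pool 3. It had 3.23, 4.13 and 3.56 cpm in males, against 4.65, 4.52 and 49.5 cpm in females, and its log2 fold change of -2.44 was -0.33 without that pool (adjusted p = 0.988). It missed the threshold as well whichever 1 male pool was left out (adjusted p = 0.0536 to 0.0788) and with the 65 dph pools alone (adjusted p = 0.279). In 5 of the 30 non-Z genes called lower in males, female pool 3 was more than 2-fold above both other female pools. Without it 14 non-Z genes were called lower in males, 8 of them among the 30. Without female pool 1, whose Z index was the closest to 0 among female pools, 60 non-Z genes were called lower in males.

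ENSTGUG00000014516 also has no symbol or chromosome. It was higher in males at 65 dph, with 3.97, 3.40 and 3.45 cpm in males, against 0.48, 0.13 and 0.21 cpm in females (3.66 ± 0.75, adjusted p = 0.00304), and was called whichever 1 of the pools was left out. At 1 dph it was at 0.30, 0.12 and 0.36 cpm in males and at 4.19, 4.16 and 0.41 cpm in females. At 20 dph all 6 pools were at most 0.28 cpm, and in adults male pool 3 alone reached 3.36 cpm. Over all 24 pools its level was thus either at most 0.707 cpm or at least 3.36 cpm, and the pools at the higher level were of either sex. The gene passed the filter on low counts mostly through male pools at 65 dph and female pools at 1 dph, groups in which it is high. Its tests at 65 and 1 dph are therefore given as a description and are not used. ENSTGUG00000014221 had 0.785, 1.77 and 1.67 cpm in males and 0.73, 0.19 and 0.33 cpm in females, and was not called without male pool 2 or 3 or female pool 2 or 3 (adjusted p = 0.11 to 0.179).

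**Figure D4:**
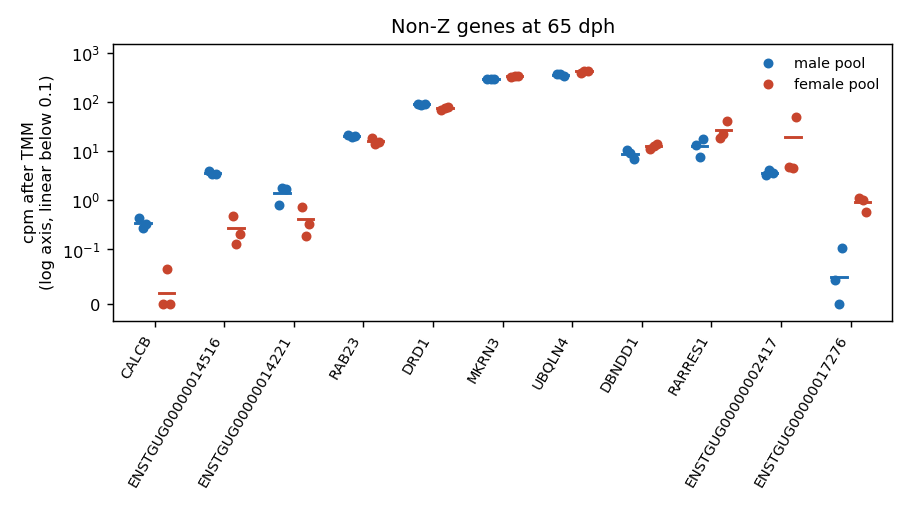
Level in cpm after TMM (log axis, linear below 0.1) of 11 named non-Z genes in each male and female pool at 65 dph, with male pools to the left and a bar at each mean. The 5 genes on the left are higher in males and the 6 on the right lower; for ENSTGUG00000002417 female pool 3 alone, at 49.5 cpm, lies far from the others.

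Most Z genes called at 65 dph were also higher in males at the younger ages. Of the 400 called higher in males at 65 dph, 399 had the same direction at 1 dph and 400 at 20 dph. At 1 dph 371 of them (92.8%) were called, beside 69.6% of all Z genes and 3.71% of all genes. At 20 dph 312 of them (78.0%) were, beside 53.7% of all Z genes and 2.71% of all genes. Over all 639 Z genes, 95.9% were higher in males at 1 dph and 91.9% at 20 dph. The median log2 fold change of the 400 was 0.84 at 65 dph, where they were chosen, 0.87 at 1 dph and 0.81 at 20 dph. PIK3C3 was at 0.91 at 1 dph, 0.86 at 20 dph and 0.95 at 65 dph, and STARD4 at 0.85, 0.96 and 1.03.

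The 4 Z genes lower in males at 65 dph also had negative values at 1 and 20 dph. UBE2R2 was called at 1, 20 and 65 dph (-0.40, -0.43 and -0.34). HINT1 was called at 1 dph (-0.85) and had a value of -0.15 without a call at 20 dph, whereas DCAF12 and TNPO1 were called at 20 dph (-0.67 and -0.78) and had values of -0.15 and -0.19 without a call at 1 dph. NTRK2 was called at 1 dph (0.54) and 65 dph (0.57), and was at 0.25 at 20 dph (adjusted p = 0.463). GADD45G was called at 1 dph (0.50, adjusted p = 0.0115) but at neither 20 dph (0.41) nor 65 dph (0.23).

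Differences in the sex effect between 65 dph and another age were tested in the same model. Against 1 dph only ENSTGUG00000014516 was called (0.0072% of genes, 7.12 ± 1.04 on the log2 scale, adjusted p = 0.00957), and it was not without female pool 2 or 3. It passed the filter on low counts mostly through the groups of this contrast in which it is high, so that this test is not used. DESeq2 and the likelihood ratio test each made 2 calls. Against 20 dph, 0 genes differed by edgeR's quasi-likelihood test, whereas 946 (6.81%) had an unadjusted p under 0.05, and DESeq2 and the likelihood ratio test each made 1 call. For none of the genes named above except ENSTGUG00000014516 was a change in the sex difference between 1 or 20 dph and 65 dph thus called, NTRK2, GADD45G and HINT1 included.

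Against adults, the sex effect at 65 dph differed for 130 genes (0.936%), among them 118 Z genes, all with a larger ratio toward males at 65 dph. Of the non-Z genes 3 differed in the same direction and 9 in the other (0.0648% of all genes). The count changed when an adult male pool was left out. Pools 1 and 3 were picked by their Z index, a median over Z genes. Fits without them thus cannot decide what the difference rests on. In adults 6 genes (0.0432%) were called by edgeR, all higher in males and 0 of them on the Z (195 Z genes had an unadjusted p under 0.05, and DESeq2 called 2). With adult male pools 1 and 3 both left out, 1 adult male pool remains, so that the calls of that fit are not used. Without adult male pool 1 the difference from 65 dph was called for 65 genes, without pool 3 for 81 and without pool 2 for 245. The median ratio of Z genes to the female mean of the same age was 1.599, 1.588 and 1.651 in the male pools at 65 dph, against 1.00, 1.30 and 1.11 in adult male pools 1, 2 and 3. Whether the smaller sex effect in adults belongs to their age or to these pools cannot be told apart.

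**Figure D5:**
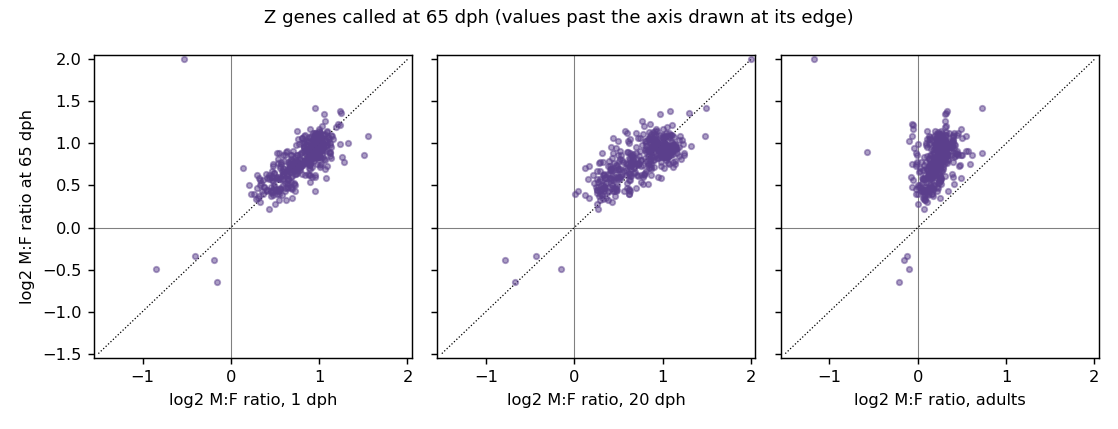
Log2 M:F ratio at 65 dph (y axis) against that at 1 dph, 20 dph and in adults (x axes) for the 404 Z genes called at 65 dph, 1 point per gene, with equality as a dotted line. Of the 400 called higher in males at 65 dph, 399, 400 and 381 lie right of 0; points lie near the dotted line at 1 and 20 dph and left of it in adults, whose male pools 1 and 3 had low Z indices.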

How the data were processed

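The authors sequenced RNA of pooled telencephalons from stranded mRNA libraries, mapped the reads with STAR 2.5.2b to the Ensembl zebra finch assembly taeGut3.2.4 and counted them per gene with HTSeq 0.6.0. The deposited values are raw counts. The strand setting of the counting is not given in the sources used here, so that overlapping genes and near-identical copies may share reads.

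Counts were analysed with edgeR 4.0.16 in R 4.3.3 (figures with Python 3.11.15). The test covered the 13891 of 18618 genes that reached 1 cpm in 3 or more samples. After TMM, a quasi-likelihood model with 8 group means was fitted to all 24 samples, male minus female was tested at 65 dph with Benjamini-Hochberg adjustment at 0.05 over all tested genes, and differences between ages were contrasts of the same model. The test was checked on simulated data. P-values measure the spread between pools, and columns of no sample numbered 0.

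Symbols (3515 tested genes) and chromosomes came from the study's supplementary tables, without their values. Named genes were the 10 Z genes with the largest ratio and no overlap, the 5 with the smallest adjusted p, Z genes lower in males, non-Z calls without overlap (with a symbol, and 2 per direction without), the 5 highest Z genes, the 5 closest to equality, up to 4 called members per list and 7 genes the study names. Other list members given were picked after their values were seen. Values of a few list members are not reported here. Members and lists were chosen with earlier results of these data known.

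Alternatives were no filter, DESeq2 1.42.0, its size factors in edgeR, edgeR's likelihood ratio test, at least 10 cpm in 3 samples, the 65 dph pools alone, the study's stagewise test and each pool left out. Leaving out adult male pools was added after the data were seen.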

Additional observations from a re-analysis of the deposited data

Results flagged for a closer look

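The sex effect of 1 named gene was called as different between 65 dph and 1 dph by a test of the difference itself. For ENSTGUG00000014516, the log2 M:F ratio at 65 dph exceeded that at 1 dph by 7.12 (adjusted p = 0.00957, edgeR's quasi-likelihood test), with a log2 M:F ratio of 3.66 at 65 dph and of -3.45 at 1 dph. It was higher in all 3 male pools at 65 dph and was highest in 2 of 3 female pools at 1 dph. The gene passed the filter on low counts mostly through these pools, and the call was lost without female pool 2 or 3 at 65 dph. Its test is therefore given as a description and is not used.

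The sex effect of 26 named Z genes differed between 65 dph and adults by the same test, each with a larger log2 M:F ratio at 65 dph. For CKMT2 the difference was 4.74, but this gene passed the filter on low counts only through the male pools at 65 dph, so that its test is not used. For the others given here it was, on the log2 scale, ERCC6L2 1.04, PIGG 0.91, SPTLC1 0.86, AK3 0.83, RIT2 0.83, C9orf72 0.83, PIP5K1B 0.79, NAA35 0.76, PLAA 0.76, SNCAIP 0.74, PIK3C3 0.73, STARD4 0.73, SRP19 0.72, SMC5 0.71, HSD17B4 0.70, CENPK 0.69, TTC37 0.68, WDR36 0.67, CCNH 0.65, SETD9 0.63, YTHDC2 0.61, UBAP2 0.52, RASA1 0.48 and BTF3 0.41. Their adjusted p-values were 0.00101 to 0.0427. Beside these values, adult male pools 1 and 3 had Z indices of -0.08 and 0.06. Their part in these values was not tested gene by gene.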

How the results depend on the processing

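Z genes called higher in males numbered 323 to 477 under the alternatives run, beside 400, whereas counts outside the Z moved more. Over all genes 453 were called, and 350 to 471 without 1 pool at 65 dph. The 4 Z genes lower in males were 7 with the study's stagewise test and 2 to 4 without 1 pool. The 19 non-Z genes higher in males were 11 with at least 10 cpm in 3 samples, 53 with the stagewise test and 11 to 21 without 1 pool. The 30 non-Z genes lower in males were 50 with the likelihood ratio test, 49 with DESeq2, 19 with the 65 dph pools alone, 140 with the stagewise test and 12 to 60 without 1 pool (60 without female pool 1, 14 without female pool 3, 12 without male pool 2 and 15 without male pool 3). With the 65 dph pools alone, 21 of 41 non-Z calls were shared with the 49.

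The difference in sex effect between 65 dph and adults was called for 130 genes, 118 of them on the Z. With the likelihood ratio test there were 217 and 180, with DESeq2 221 and 192, and without 1 pool 65 to 245 and 59 to 224. Without male pool 3 at 65 dph there were 84 and 75. Between 65 and 20 dph the likelihood ratio test and DESeq2 made 1 call each, against 0, and between 65 and 1 dph 2 each, against 1, with 0 to 2 without 1 pool. Leaving out adult male pools 1 and 3 together leaves 1 adult male pool, and both were picked by their Z index. The count given next for that fit thus cannot show whether Z genes differ by sex in adults and is not used. The Z genes called in adults numbered 0, against 4 with the likelihood ratio test, 2 with DESeq2, 87 without adult male pools 1 and 3 and 0 to 8 without 1 pool.

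The median Z ratio of 1.63 was 1.57 as the mean of log2 ratios and 1.59 to 1.69 without 1 pool. The non-Z median of 0.988 was 0.983 without TMM, 0.989 with DESeq2 size factors, 0.991 for genes of at least 10 cpm and 0.980 as the mean of log2 ratios. The cause of these changes was not tested. For single named genes 957 values kept their side of the threshold, 93 lost the call, 7 gained it and 1 moved. Among genes called in the main fit 0 values turned direction. Direction was not checked for the uncalled genes, whose values counted as kept within 1 SE. No paired analysis was possible because the labels give no replicate numbers shared between the groups. Of Z genes up to 9.96 cpm 76 of 213 were called, beside 163 of 213 above 42.2 cpm, and the part of depth in this was not tested.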
